A study of Homo sapiens with 8 samples.

Results

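The genes described here encode the enzymes that build glycosylphosphatidylinositol (GPI) anchors and the sugar chains of glycoproteins, glycolipids and proteoglycans. They were chosen by symbol alone (PIG, PGAP, ALG, STT3, MGAT, GALNT, B3G, B4GAL, ST3GAL, ST6GAL, FUT, EXT, CHST and similar stems), leaving out antisense names and pseudogenes. The pattern took 242 rows of the m6A peak list, of which 3 were left out, and 239 peaks on 125 genes remained, out of 22626 peaks on 12009 genes in all.

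N6-methyladenosine (m6A) was mapped in HCT116 cells, a human colorectal cancer line, by sequencing fragments of poly(A) RNA (per the labels' protocols) bound by an anti-m6A antibody (IP) beside unselected fragments (input). The 8 libraries form 4 groups of 2: IP and input from wild-type-labelled cells with the control hairpin (shNC), and IP and input from cells with stable knockdown of ALKBH5, an m6A demethylase, by a hairpin labelled AL1. All come from 1 cell line with no further treatment, nothing says that the replicates were separate cultures, and the labels name more than 1 anti-m6A antibody. The measurements are 1 peak list holding the comparison of arms that the authors made, so replicate error cannot be given for any value below, and sequencing depth is unknown.

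The log2 fold compares the arms, but the files and labels used here do not state its numerator, so its sign is given and neither sign is taken to mean more m6A in one arm. They do not state either whether transcript level was corrected for, and m6A and RNA level cannot be told apart. ALKBH5 itself had 3 peaks, with log2 folds of -1.43, -0.93 and -1.25 and none past a false discovery rate (FDR) of 0.05 in the authors' deposited table. Of 10 markers of colorectal epithelium, 6 had a peak, EPCAM, CDH1 and CDX2 among them, and CDX1, CEACAM5, KRT20 and VIL1 had none. Of 6 fibroblast and 6 leukocyte markers, 1 each had a peak (COL1A1 and CD68).

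A GPI anchor is a glycolipid that is assembled in the endoplasmic reticulum (ER), attached to the end of a protein by a transamidase and remodelled on the way to the cell surface. N-glycans start as an oligosaccharide built on the lipid dolichol, which oligosaccharyltransferase moves onto asparagines, and are then trimmed by mannosidases and branched in the Golgi. Mucin-type O-glycans start with N-acetylgalactosamine on serine or threonine, while glycosaminoglycans such as heparan and chondroitin sulfate are long sulfated chains on proteoglycans. Sialic acid and fucose cap many of these chains, and altered capping and mucin glycans are well known in colorectal cancer.

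Most genes of these pathways carried at least 1 peak. The share of all protein-coding genes with a peak is not given here, so this is not read as particular to these pathways. RefSeq (GRCh38.p14) holds 180 protein-coding genes whose symbol fits the pattern, and 121 of them had a peak under the same symbol. All 4 catalytic or ribophorin genes of oligosaccharyltransferase had peaks (RPN1, RPN2, STT3A and STT3B), as did 14 of 17 GPI anchor synthesis genes. Of the 5 transamidase genes, PIGS and PIGU had a peak while PIGK, PIGT and GPAA1 had none listed. N-glycan branching genes had a peak in 4 of 9 cases, mucin-type initiation genes in 13 of 20, and glycosaminoglycan genes in 25 of 42. PIGR, which fits the pattern by its letters but encodes an immunoglobulin receptor, had no peak, and B3GALT9 had 1 peak and was placed in no role group. Transcript levels were not analysed here, so a missing peak is read neither as missing m6A nor as a missing transcript.

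**Figure D1:**
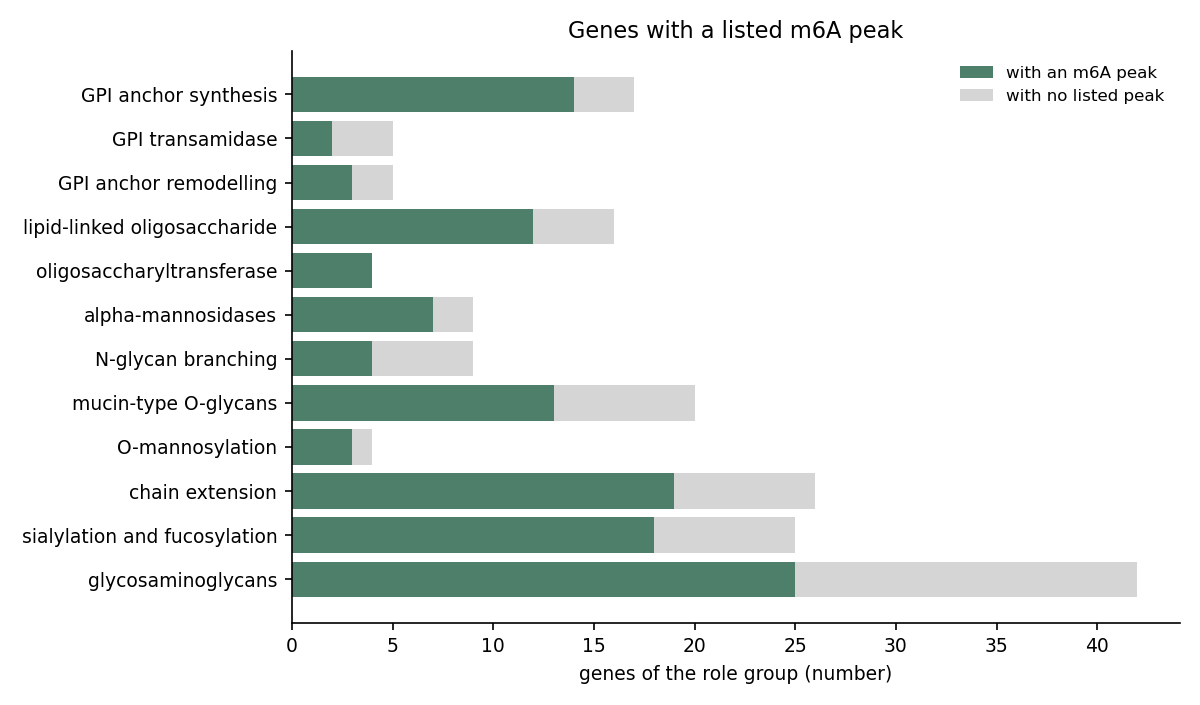
Number of genes in each role group (horizontal axis) with at least 1 listed m6A peak (green) and with none (grey). All 4 oligosaccharyltransferase genes have a peak, while 25 of 42 glycosaminoglycan genes and 2 of 5 transamidase genes do.

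Few of these peaks differed between the arms in the authors' comparison. Among the 239 peaks, 11 (4.60%) passed an FDR of 0.05 in the authors' deposited table, against 8.23% of all peaks. Of these 11, 7 had a positive log2 fold and 4 a negative one, where 5.74% and 2.49% of all peaks were called in each direction. The 11 rows are 10 distinct peaks on 10 genes, because the CHST14 peak fills 2 rows with starts 1 base apart. The median log2 fold of the 239 peaks was 0.10, with quartiles of -0.73 and 0.68, against 0.14 (-0.52 and 0.79) for all peaks. The folds of all peaks are centred at 0.14 and not at 0. Calls were therefore also made after subtracting that median, with p taken as one-sided. This left 11 calls, where 7.8% of all peaks were called, with another split: 4 positive and 7 negative, against 4.13% and 3.67% of all peaks. GALNT6, MAN1A1 and ST3GAL5 were then lost, and the negative peaks of FUT1, STT3A and ST6GALNAC4 were gained. Whether the authors' p is one-sided is not stated, and with every p doubled 6 calls were left, on ALG6, CHST14, CHSY1, PGAP2 and STT3B, where 6.36% of all peaks were called. At an FDR of 0.01 the count was 5 (4.95% of all peaks), and at an unadjusted p under 0.05 it was 35 (19.9% of all peaks).

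**Figure D2:**
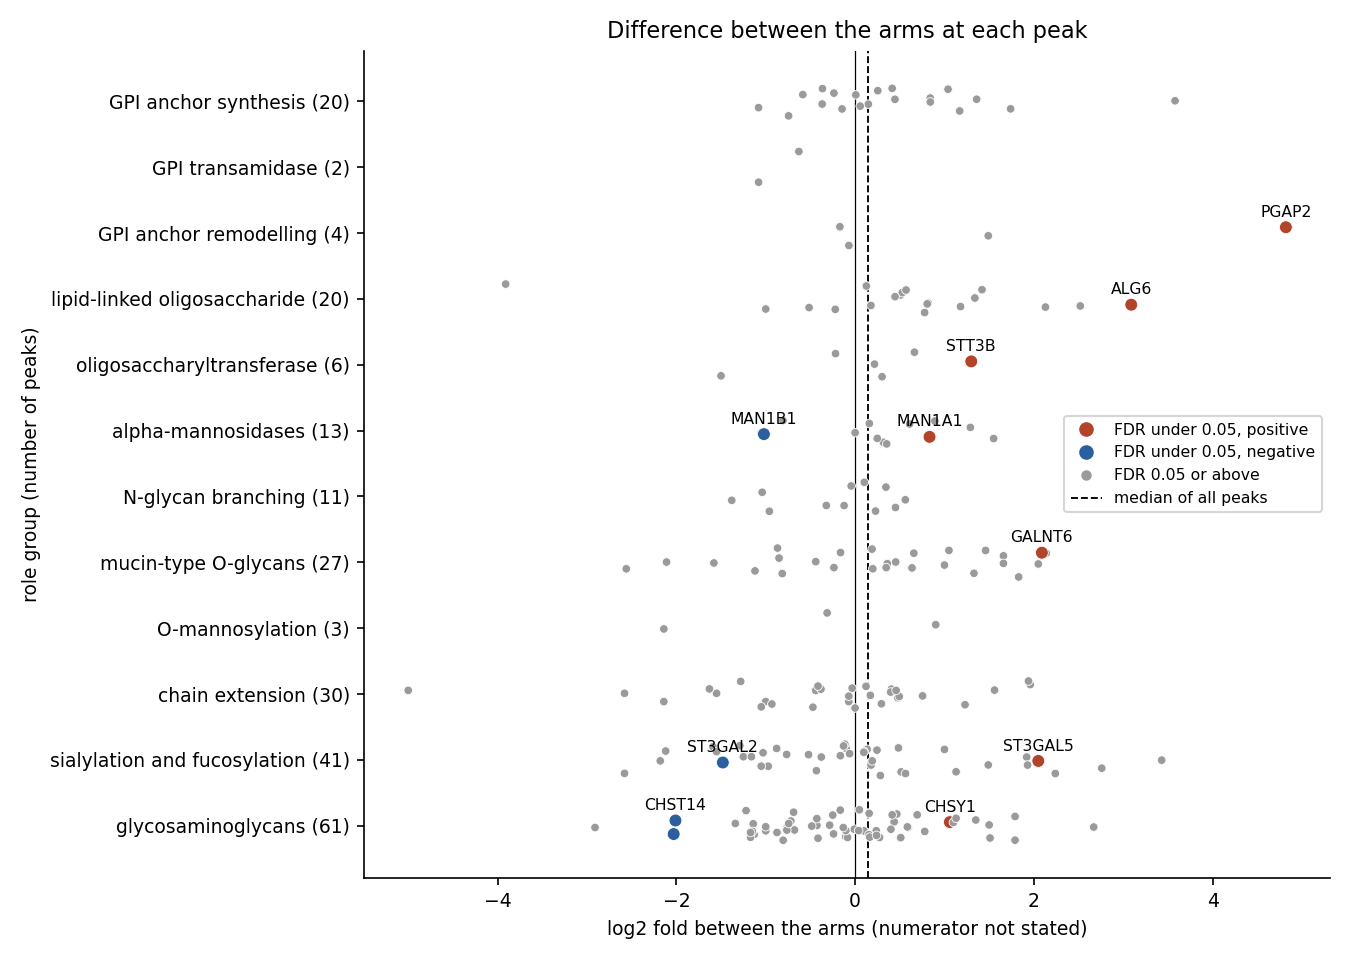
Log2 fold between the arms in the authors' deposited table (horizontal axis) for each of the 238 peaks in a role group, with the number of peaks. Red and blue points passed an FDR of 0.05 and grey points did not, and the dashed line is the median of all peaks, 0.14. Called peaks reach from -2.03 for CHST14 to 4.82 for PGAP2.

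Among the 26 peaks of the GPI genes, PGAP2 carried the 1 called peak (3.85%, against 8.23% of all peaks). PGAP2 acts late, in the lipid remodelling of finished anchors. Its single peak covers chromosome 11, 3825715 to 3825983, with 269 exonic bases centred 522 bases from the annotated 3′ end. In the authors' deposited table this peak has the highest log2 fold of all 22626 peaks, 4.82 (FDR 7.59e-08), at an enrichment of IP over input of 3.87, below the lower quartile of all peaks (4.96). PGAP1, which removes a fatty acid from the inositol of new anchors, stood at -0.17, and the peaks of PGAP4, a Golgi glycosyltransferase of the anchor, at -0.07 and 1.49 in the authors' deposited table, and none of these passed.

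The 20 peaks of the GPI anchor synthesis genes held 0 calls at an FDR of 0.05, where 8.23% of all peaks were called. Their folds in the authors' deposited table ran from -1.08 for PIGW, an inositol acyltransferase, to 3.58 for PIGG, an ethanolamine phosphate transferase, with a median of 0.20. PIGG had 3 peaks, all positive (3.58, 0.25 and 1.74), with FDRs of 0.556, 0.684 and 0.604 in the authors' deposited table. PIGC, a subunit of the enzyme that starts the anchor, also had 3 listed peaks, of which one is a near repeat of another on the same bases. The smallest FDR of the group was 0.438, for PIGF (log2 fold 0.45 in the authors' deposited table), whose peak shares bases with a peak of RHOQ on the other strand. Both transamidase peaks had negative folds in the authors' deposited table, -0.63 for PIGS (FDR 0.130) and -1.08 for PIGU (FDR 0.552). Of the GPI anchor synthesis peaks, 10 of 20 were centred within 1000 bases of the annotated 3′ end, against 22.2% of all peaks, a difference that was not tested. The group's 4 peaks that share bases with peaks of other genes, on PIGB, PIGF, PIGH and PIGY, are all among these 10.

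Genes that assemble the lipid-linked oligosaccharide had mostly positive folds. Of their 20 peaks 16 were positive (80.0%, against 55.3% of all peaks), 6 of them on ALG11, and the difference was not tested. The median of the 20 folds was 0.67, and 15 of them lay above the median of all peaks. Of the 20, 1 peak was called (5.00%, against 8.23% of all peaks), on ALG6, the glucosyltransferase that adds the first glucose to the oligosaccharide. This peak (chromosome 1, 63370804 to 63371103) stood at 3.09 in the authors' deposited table (FDR 0.0191), with an enrichment of 4.31. The other ALG6 peak stood at -1.0 with an FDR of 0.687. ALG11, a mannosyltransferase, had 6 peaks, all positive from 0.13 to 1.42 in the authors' deposited table, and none passed. Of these 6, 4 share bases with peaks of UTP14C on the same strand, so their reads cannot be given to 1 gene. ALG10, which adds the last glucose, held the lowest fold of the group, -3.91, with an FDR of 0.520 in the authors' deposited table. None of the 19 peaks placed on an annotated gene was centred within 1000 bases of its 3′ end.

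DPAGT1, the enzyme that starts the oligosaccharide on dolichol and the target of tunicamycin, had its 1 peak at the very start of the gene. That peak and the first of 3 peaks on MAN1B1, described below, are the ones among 95 of 125 genes with a RefSeq start sequence that covered all of the first 30 transcribed bases. Those bases are shown because anti-m6A antibodies also bind the methylated base next to the cap. Capitals mark a match to the m6A consensus, which is AAAC or AGAC or GAAC or GGAC or TAAC or TGAC followed by A, C or T, searched on the transcribed strand alone.
DPAGT1: aGAACAtaggttgccttagagaggttcccc
MAN1B1: gttgacggcgctgcgatggctgcctgcgag
The first sequence is chr11:119101824-119101853 on the minus strand and the second chr9:137086985-137087014 on the plus strand (GRCh38.p14, RefSeq). A match stood at bases 2 to 6 of DPAGT1 and none in the MAN1B1 window, and 33.6% of 35116 annotated start windows of that length hold one. Neither peak was called: the authors' deposited table gives DPAGT1 2.13 (FDR 0.532) and MAN1B1 -1.05 (FDR 0.441).

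Oligosaccharyltransferase has alternative catalytic subunits, STT3A, which glycosylates proteins as they enter the ER, and STT3B, which also acts after translation. STT3B had 3 peaks, and the one nearest the 5′ end (chromosome 3, 31533669 to 31596863, 481 exonic bases in 4 exon blocks) was called. The authors' deposited table gives it 1.30 (FDR 6.31e-05), at an enrichment of 12.5. The other STT3B peaks stood at 0.22 and -0.22, with FDRs of 0.649 and 0.608 in the authors' deposited table. The single STT3A peak had a fold of the other sign, -1.5, and missed the threshold narrowly (FDR 0.0617 in the authors' deposited table), at an enrichment of 2.31. It passed once the folds were recentred. RPN1 and RPN2, the ribophorin subunits, stood at 0.30 and 0.66 in the authors' deposited table, and neither passed. Of the 6 peaks of the group, 1 was called (16.7%, against 8.23% of all peaks). The group's median enrichment, 3.06, was the lowest of all role groups.

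Mannosidases that trim N-glycans carried called peaks of both signs. Of the 13 peaks of the mannosidase group, 2 were called (15.4%, against 8.23% of all peaks). MAN1A1, a Golgi mannosidase, had a called peak at chromosome 6, 119179564 to 119180378, which stood at 0.83 in the authors' deposited table (FDR 0.0372). It shares bases with a peak of an unnamed locus on the other strand, and its call was lost with folds recentred and with p doubled. MAN1B1, the mannosidase that acts in glycoprotein quality control, had a called peak at chromosome 9, 137108410 to 137109159, centred 398 bases from the 3′ end. In the authors' deposited table it stood at -1.02 (FDR 0.0407), close to the -1.05 of the peak at the gene's start, while the middle peak stood at 1.29 (FDR 0.661). MAN2B2, a lysosomal mannosidase, had 3 peaks, at 1.55, 0 and 0.35 in the authors' deposited table, and its peak at an enrichment of 32.6 was the strongest of the group. N-glycan branching genes had no call among 11 peaks, where 8.23% of all peaks were called, with folds from -1.38 to 0.56. MGAT1, which opens the way to complex N-glycans, had 4 peaks, 1 of them at an enrichment of 75.4, the highest among the 239, and its smallest FDR was 0.188 (log2 fold 0.45 in the authors' deposited table).

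**Figure D3:**
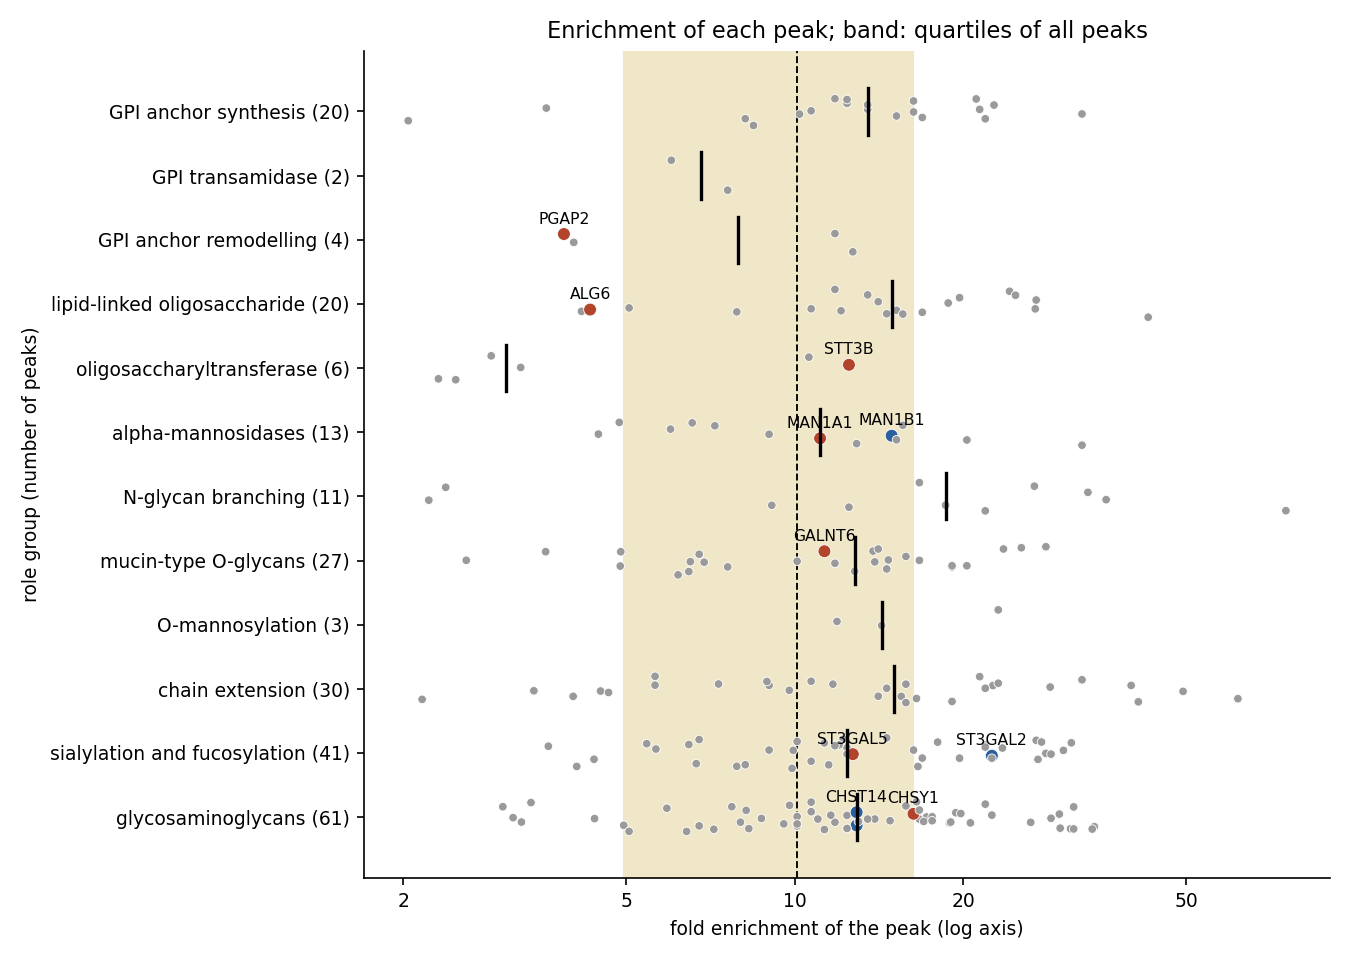
Fold enrichment of each peak in the authors' deposited table (log axis), by role group, with colours as for the log2 folds. Short black lines are group medians, and the band and dashed line are the quartiles (4.96 and 16.3) and median (10.1) of all peaks. The called peaks of PGAP2 and ALG6 sit below the band, and the oligosaccharyltransferase median is 3.06.

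These peaks were more enriched than the list as a whole, with a median of 12.8 and quartiles of 7.94 and 19.6, against 10.1, 4.96 and 16.3 for all peaks, a difference that was not tested. In the whole list calls were most frequent at low enrichment, with 14.5% of the peaks below 4.96 called and 5.02% of those at 16.3 or more. Of the 239 peaks, 32 had an enrichment below 4.96, with 2 calls (PGAP2 and ALG6), and 87 one of 16.3 or more, with 2 calls (CHSY1 and ST3GAL2). From 4.96 to below 10.1, 0 of 45 were called, against 8.20% of all peaks there. From 10.1 to below 16.3, 7 of 75 were (9.33%, against 5.30% of all peaks there), counting both rows of the CHST14 peak. These differences were not tested. Of the 239, 58 (24.3%, against 21.1% of all peaks) had a peak p and an enrichment that both recur, identical, on peaks of at least 10 genes. None of those 58 was called, and of all 4767 such peaks in the list 5 were. Without them the median enrichment was 12.5, against 8.44 for all peaks treated alike.

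Mucin-type O-glycan initiation genes had 17 positive and 10 negative folds among 27 peaks, with a median of 0.36. Of the 27, 1 was called (3.70%, against 8.23% of all peaks). GALNT6, one of the transferases that place the first sugar, carried the called peak (chromosome 12, 51353196 to 51353736). It stood at 2.09 in the authors' deposited table (FDR 0.0468). The neighbouring GALNT6 peaks stood at 2.05 toward the 3′ end (FDR 0.265) and -2.11 toward the 5′ end (FDR 0.290), and the last at 1.05 in the authors' deposited table. The signs thus changed between adjacent peaks of 1 transcript, although neither neighbour passed. GALNT5 also had 4 peaks, from -1.58 to 1.0 in the authors' deposited table. The strongest enrichment of the group, 28.1, was on GALNT4, whose 3 peaks all share bases with the readthrough gene POC1B-GALNT4. Of the O-mannosylation genes, POMGNT1, which extends O-mannose, came nearest with 0.90 (FDR 0.103), and POMGNT2 stood at -0.31 and POMT2 at -2.14 in the authors' deposited table.

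The chain extension genes, most of them for galactose or N-acetylglucosamine transferases, had 0 calls among 30 peaks, where 8.23% of all peaks were called. Their folds were 13 positive and 16 negative, with a median of -0.05. B4GALT3, a galactosyltransferase, had the smallest FDR, 0.0912, at 0.48 in the authors' deposited table. B3GALT5, which makes type 1 chains in the gut, had the second lowest fold of all 22626 peaks, -5.00, but an FDR of 0.238 in the authors' deposited table. That B3GALT5 peak spans 151 bases and has a log10 p as a peak of -2.77. The strongest enrichment, 61.9, was on B4GALNT3, whose 3 peaks all had negative folds from -0.41 to -1.55 in the authors' deposited table. B3GNT7 also had 3 peaks, at 0.76, -0.07 and 0 in the authors' deposited table. B3GNT4 stood at -2.58, 1.94 and 0.17 across 3 peaks within 1 stretch of the gene, and 2 of these overlap peaks of DIABLO on the other strand.

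Sialyltransferase genes carried 2 called peaks of opposite sign. These are the calls among the 41 peaks of the sialylation and fucosylation genes (4.88%, against 8.23% of all peaks). ST3GAL5, which makes the ganglioside GM3, had a called peak at chromosome 2, 85847976 to 85848306, with 2.05 (FDR 0.0398) in the authors' deposited table. The other ST3GAL5 peaks stood at 0.56 (FDR 0.419) and -0.12 (FDR 0.748). ST3GAL2, which sialylates O-glycans and gangliosides, had a called peak at chromosome 16, 70398638 to 70399477, with -1.48 (FDR 0.0269) in the authors' deposited table. A further ST3GAL2 peak stood at -1.29 (FDR 0.149) and the last at 1.13 (FDR 0.665). The called ST3GAL2 peak overlaps a peak of an unnamed locus on the other strand, so its gene is uncertain. FUT1, which makes the H antigen, and ST6GALNAC4, a sialyltransferase of O-glycans, lay just outside the threshold with -0.97 (FDR 0.0589) and -1.05 (FDR 0.0661) in the authors' deposited table. Both passed when folds were recentred. FUT10 had 3 peaks, including the strongest enrichment of the group (31.2), and its peak at 3.43 did not pass (FDR 0.0708 in the authors' deposited table). ST3GAL1 had the most peaks of the group with 4, from -0.88 to 0.52, and none passed. Just inside the threshold stood ST3GAL5, MAN1B1 and GALNT6, with FDRs of 0.0398, 0.0407 and 0.0468.

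Glycosaminoglycan genes formed the largest group, with 61 peaks on 25 genes, 28 positive and 33 negative, and a median of -0.10. Of the 61, 3 were called (4.92%, against 8.23% of all peaks), counting both rows of the CHST14 peak. CHST14, the sulfotransferase of dermatan sulfate, carried 1 peak over 1014 exonic bases (chromosome 15, 40471966 to 40472979), centred 685 bases from the 3′ end. The authors' deposited table gives it -2.01 (FDR 0.000141), and the repeat of the peak stood at -2.03 (FDR 0.000123). CHSY1, which polymerises chondroitin, had a called peak of the other sign over 1920 exonic bases (chromosome 15, 101177016 to 101178935). It stood at 1.06 (FDR 0.00123) in the authors' deposited table, while the 5′ peak of CHSY1 stood at -0.72 (FDR 0.303). CHST3, the chondroitin 6-O-sulfotransferase, had the most peaks of the group with 6, from -2.91 to 1.35, and none passed. HS3ST1, a heparan sulfate 3-O-sulfotransferase, had the strongest enrichment (34.3) and the strongest peak p of the 239, listed as 0, and its fold in the authors' deposited table was 0.24 (FDR 0.267). The heparan sulfate polymerase genes EXT1 and EXT2 had 3 and 2 peaks and no call, with folds from -0.08 to 1.79.

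**Figure D4:**
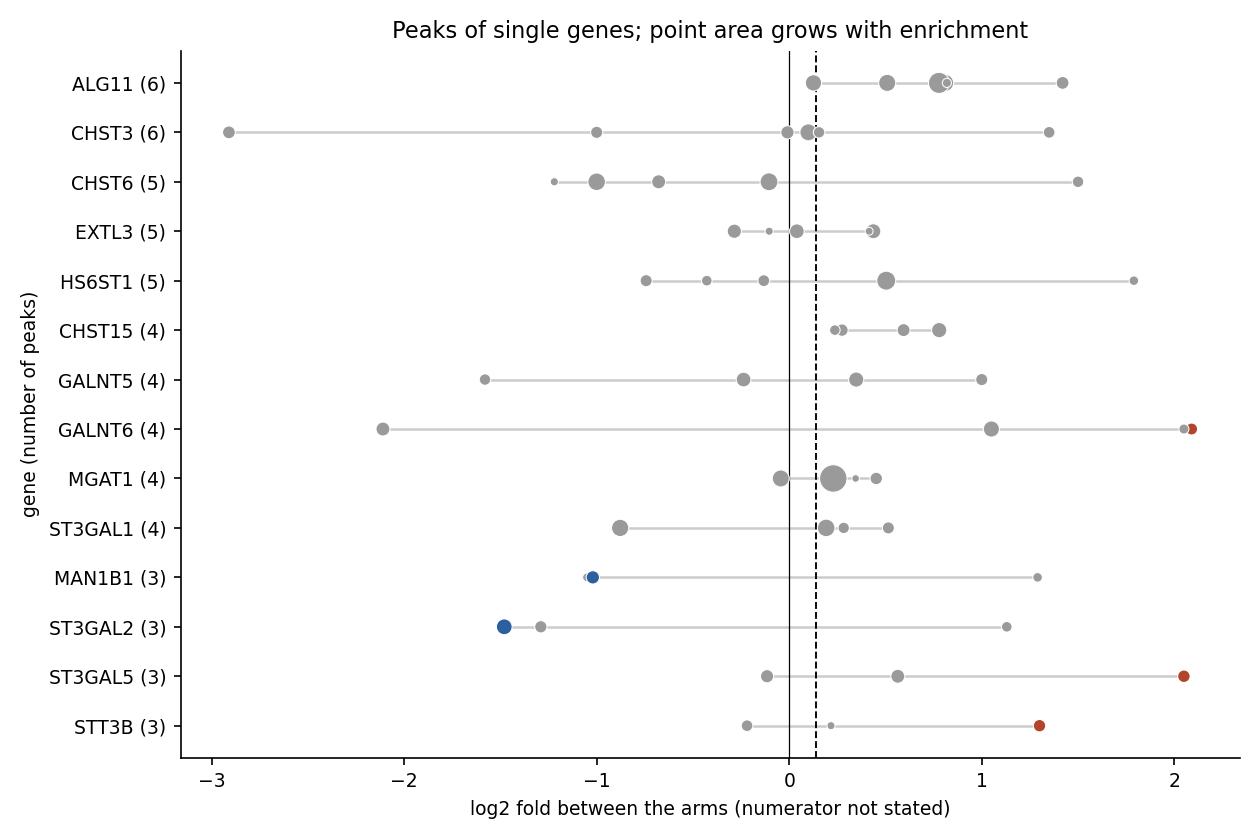
Log2 folds (authors' deposited table) of separate peaks on genes with at least 4 peaks, and of genes with 3 peaks and a call (horizontal axis). Point area grows with enrichment, colours are as for the other folds, grey bars join the lowest and highest fold of a gene, and the dashed line is the median of all peaks. ALG11 and CHST15 lie wholly on the positive side, while GALNT6 runs from -2.11 to 2.09.

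Separate peaks of 1 gene often differed in sign, in these genes about as often as in the whole list. Of 63 genes with at least 2 distinct peaks, 40 had folds of both signs (63.5%), 13 positive folds alone and 9 negative folds alone. Among all genes with at least 2 distinct peaks the share with both signs was 60.0%. Taken about the median of all peaks, 0.14, 38 of the 63 had folds on both sides (60.3%, against 62.1%). None of the 63 had called peaks of both signs, so these signs rest largely on uncalled peaks. The median distance between the lowest and highest fold of a gene was 1.5 on the log2 scale, against 1.34 for all such genes.

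The share of peaks near the 3′ end was close to that of the whole list. Of the 238 peaks that could be placed, 50 had their centre within 1000 bases of the annotated 3′ end. That share is 21.0% (95% exact Clopper-Pearson interval 16.01 to 26.7, counting error alone), against 22.2% of all peaks. The interval treats peaks as independent, although a gene holds up to 6 of them and the CHST14 peak is counted in both its rows. It was not used as a test. Within 1000 bases of the 5′ end lay 13 peaks (5.46%), against 9.60% of all peaks, and within 500 bases 3.36% against 6.41%, differences that were not tested. Peaks that span more than 1 exon block made up 24.3%, against 30.4%, and the median exonic length was 361 against 300 bases. Among the called peaks, PGAP2, MAN1B1 and CHST14 lay within 1000 bases of the 3′ end, while the ST3GAL5 peak lay 11021 bases from it, that of ST3GAL2 23081, that of STT3B 57694 and that of ALG6 67599.

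**Figure D5:**
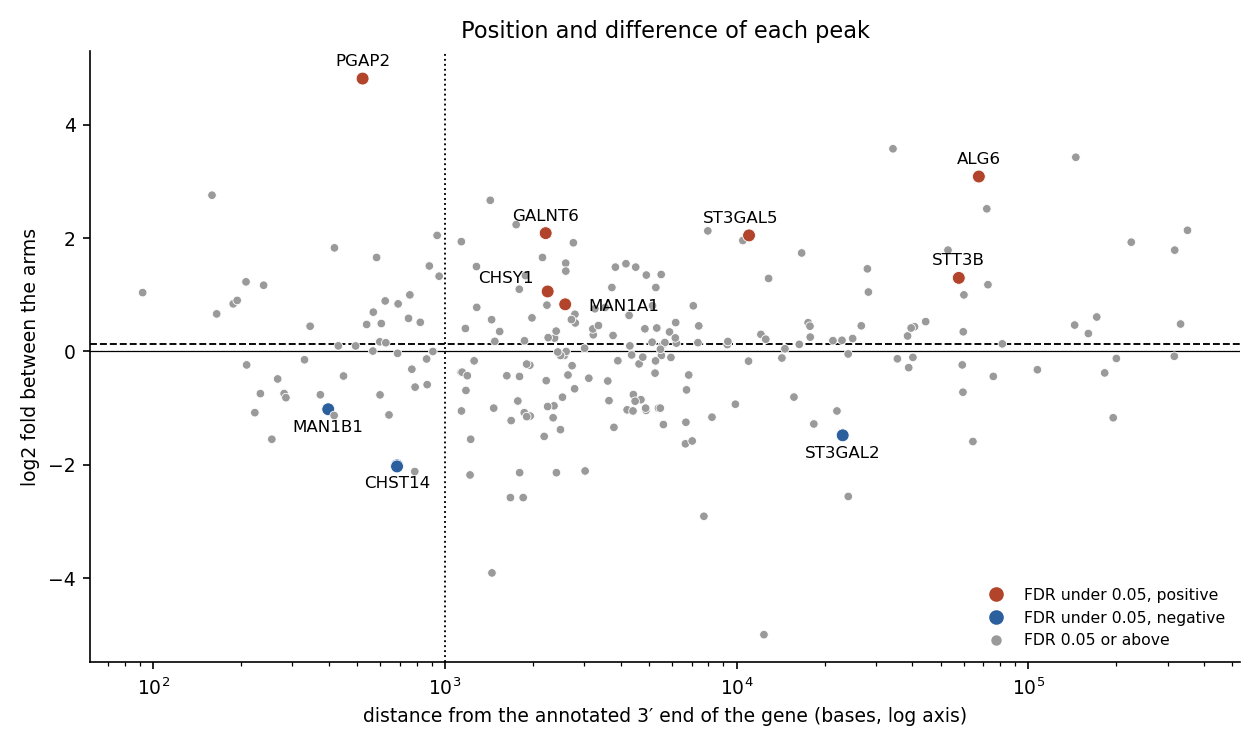
Distance of the centre of each peak from the annotated 3′ end of its gene (horizontal, log axis, bases) and its log2 fold in the authors' deposited table (vertical). Colours are as for the other folds, the dotted line stands at 1000 bases and the dashed line at 0.14. PGAP2, MAN1B1 and CHST14 lie to the left of the dotted line.

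Other genes of the same pathways, which the symbols above leave out, also carried called peaks of both signs. Of 119 such genes on a list, 90 had 169 peaks, and 19 of these peaks on 15 genes passed an FDR of 0.05 (11.2%, against 8.23% of all peaks), 11 with a positive and 8 with a negative fold. The difference from the 4.60% above was not tested. Called peaks with positive folds in the authors' deposited table included OST4 and DAD1, small subunits of oligosaccharyltransferase, at 0.92 (FDR 2.0e-14) and 0.64 (FDR 0.000129). The DAD1 peak was weak, with an enrichment of 1.15, where the lowest of all peaks is 1.12, and a log10 p as a peak of -2.78. The lectin chaperone genes CANX (1.24 and 0.98) and CALR (0.35), the cargo receptor gene LMAN1 (1.27), and GFPT1 (2.23) and GMPPB (0.79) of nucleotide sugar synthesis were also positive in the authors' deposited table. Called peaks with negative folds in the authors' deposited table lay on genes that supply dolichol and dolichol-mannose, DHDDS (-1.37) and DPM2 (-0.83). Others lay on the nucleotide sugar transporter gene SLC35A2 (-1.76) and on C1GALT1 (-1.08), which extends mucin-type glycans. CHPF, the partner of the chondroitin synthases, had 2 negative called peaks (-0.90 and -0.66), and DSE, the epimerase that acts with CHST14 in making dermatan sulfate, 1 (-0.75 in the authors' deposited table). OGA, which removes O-linked N-acetylglucosamine, had called peaks of both signs (0.95, 0.97 and -1.85), and OGT, which adds it, stood at 1.52 in the authors' deposited table. Enrichment was below the lower quartile of all peaks (4.96) at further calls: LMAN1 (1.83), CANX (2.08), CHPF (2.19), SLC35A2 (2.69), OST4 (2.72), GFPT1 (2.81) and GMPPB (4.09). The other called peaks of CANX and CHPF had enrichments of 6.03 and 6.36. Uncalled peaks of the opposite sign lay on C1GALT1 (3.04, FDR 0.0562), GMPPB (-2.17), DSE (1.27 and 1.07), OGT (-1.0), CANX (-0.64) and CALR (-0.03). The uncalled peaks of DHDDS, CHPF, SLC35A2 and LMAN1 kept the sign of the called ones. The called peaks of OST4, GMPPB and DSE share bases with peaks of AGBL5, RNF123 and TSPYL1 on the other strand, so their genes are uncertain. With folds recentred 20 peaks passed, 8 positive and 12 negative: CALR, GMPPB and LMAN1 were lost and peaks of MOGS, SLC35C1 and CHPF gained. With p doubled LMAN1, C1GALT1, DSE and the negative OGA peak were lost.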

How the data were processed

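Of the authors' read processing, BWA 0.7.12, HOMER 4.9.1 and GRCh38 are known from the submitters' processing notes, which give them no role. For peak calling and the comparison, the program was not given in the sources used here. Per the file headers, the deposited table gives each peak a p-value, log10 p and FDR values (entered as a score, since some lie far below 0), a fold enrichment (a ratio on a linear scale, taken to be IP over input), and a log2 fold between the arms with its p and FDR.

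Members and gene lists were chosen with earlier results of these data known. Calls are the authors' FDR under 0.05 over all 22626 peaks, and no set test was made. The text names every gene with a called peak. In each role group it also names the gene with the most peaks, the strongest peak and, without a call, the smallest FDR, and beyond that the 3 peaks nearest to the threshold on each side. PGAP1, ALG10, DPAGT1, B3GALT5, PIGW, EXT1 and EXT2, the other O-mannosylation and oligosaccharyltransferase genes and the second peaks of named genes were added after their values were seen.

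To recentre, the median log2 fold (0.14) was subtracted and p-values were computed anew. Each needs a standard error: the one implied by fold and p (taken as one-sided) for the 11573 peaks with p below 0.3, and for the others a prediction by gradient boosting from enrichment, length and peak p (scikit-learn 1.9.0). A one-sided p in the direction of its fold cannot exceed 0.5. The largest deposited p was 0.77, and 64 of the 239 peaks had one over 0.5. The one-sided reading thus cannot hold for every peak, and all recentred calls rest on it. With no shift the procedure returned 1867 calls against the authors' 1862. This closeness follows from how the standard errors were made and is no check of the one-sided reading. The recentring was tested on simulated data that share the one-sided reading, so that reading itself was not tested. Peaks were placed by symbol or synonym on the RefSeq gene table (GRCh38.p14), and 20695 were centred within their gene. Peaks of different genes that share a base, on either strand, are called overlapping: 37 of the 239, on 24 genes. Replicate libraries could not be compared.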

Additional observations from a re-analysis of the deposited data

How the results depend on the processing

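No paired analysis was possible because the file holds no values per library, and for the same reason no replicate could be left out. The 11 called peaks (7 positive, 4 negative) became 5 (3 and 2) at an FDR of 0.01, 35 (22 and 13) at an unadjusted p under 0.05, and 6 (4 and 2) with p doubled, where 4.95%, 19.9% and 6.36% of all peaks were called. With folds recentred they were 4 positive and 7 negative, against 4.13% and 3.67% of all peaks. With 1 peak per gene they were 7 of 125, of which 4 positive. Of the 11, 8 were kept with folds recentred and 6 with p doubled. The 19 called peaks of the other pathway genes became 10 at an FDR of 0.01, and stayed within 1.5 times of 19 with p doubled (15) and recentred (20). Median enrichment was 15.2 with 1 peak per gene. The share near the 3′ end was 9.66% within 500 bases and 35.7% within 2000, against 12.5% and 35.8% of all peaks. Counting each locus once left 10 calls among 218 peaks, leaving out overlapping peaks 9 among 202, and keeping peaks with a p under 1e-10 9 among 127. The share of all peaks called under these filters, or with 1 peak per gene, is not given here. These counts therefore cannot be set against the whole list. The median log2 fold ran from 0.04 to 0.15 over its alternatives, one of which (without the peaks that share their p and enrichment with other genes) was chosen after seeing the data.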

Other observations

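Folds in these genes were larger on weak peaks. Where the log10 p of the peak was -4.25 or higher, the median size of the log2 fold was 1.14 for the 55 peaks of these genes (0.85 for all peaks there) and 0 of the 55 were called, against 1.06% of all peaks there. Where it lay below -26.6 that median was 0.38 for 67 peaks (0.43 for all), with 5 calls. Among those strong peaks 20.2% of all peaks were called, against 7.46% of the 67. Folds of -5.00 for B3GALT5, -3.91 for ALG10 and 3.58 for PIGG, in the authors' deposited table, thus stand beside FDRs of 0.238, 0.520 and 0.556.

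Some weak peaks of different genes had identical enrichment and peak p. In the authors' deposited table, peaks of MGAT4A, B4GALNT3, CHSY3, FUT3 and ST6GALNAC5 all have an enrichment of 21.9 and a log10 peak p of -6.31, values shared by peaks of 67 genes in the whole list. Their log2 folds, from -1.55 to -0.06, differ. The ALG10, CHST3, GALNT5, PGAP1 and PIGA peaks at an enrichment of 11.8 share a log10 p of -3.10 with peaks of 215 genes.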
